A study of Mus musculus with 8 samples.

Results

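The transcripts of the mouse mitochondrial genome were measured in distal colon RNA from 8 mice. The members were chosen by name alone, as the lines of the gene table whose symbol begins with mt-, which gave 37 of 55536 lines: 13 mRNAs, 2 ribosomal RNAs (rRNAs) and 22 transfer RNAs (tRNAs). The mm10 annotation places all 37 on the mitochondrial chromosome. The animals were C57BL/6 mice of 8 to 10 weeks in 4 groups of 2. They were NAIL-ΔNFκB mice given dextran sulfate sodium (DSS, a polymer that injures the colon lining), untreated NAIL-ΔNFκB mice, wild-type (WT) mice given DSS, and untreated WT mice. DSS was given at 3% for 4 days, and 4 days of normal water followed. NAIL is a long noncoding RNA, and ΔNFκB is the submitters' name for the altered line. How the locus was altered and whether the line goes back to 1 founder are not stated in the labels. RNA came from whole tissue, so fewer cells of a type and less RNA per cell cannot be told apart in any value below. Nothing states that libraries came from separate litters or cages, so p-values measure the spread between these libraries.

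The mitochondrial genome is a small circular DNA inside the organelle. It encodes core subunits of the respiratory chain (complexes I, III and IV) and of ATP synthase (complex V), with the rRNAs and tRNAs that translate them, and the nuclear genome supplies the other subunits. Each strand is transcribed as a long precursor, which is cut at the tRNAs that sit between most genes. One strand carries most of the genes, and mt-Nd6 is the only mRNA of the other. Colonocytes, the absorptive cells of the colon, rely on mitochondrial oxidation of butyrate made by gut bacteria.

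Libraries held 9229861 to 10523079 counts after DSS and 12553588 to 16935961 untreated. Transcripts of nuclear ribosomal RNA genes took 3.46% to 6.70% of counts after DSS and 0.687% to 1.83% untreated, and the part of this difference in the results was not tested. Sex, read from Y-linked transcripts, was female for all 4 DSS mice and for untreated WT replicate 1 (at most 0.183 CPM) and male for the other 3 untreated mice (233 to 248 CPM). CPM is counts per 1e+06 counts of the library after TMM scaling, a correction for library composition. DSS and sex therefore cannot be told apart in ΔNFκB mice and only partly in WT mice, whereas the genotypes after DSS were all female. Untreated ΔNFκB mice were both male and untreated WT mice 1 female and 1 male. The untreated genotype comparison and the difference of the DSS responses are thus unbalanced for sex. A term for sex, where used below, is set only by the 2 untreated WT libraries, also for ΔNFκB mice. Gm16685, taken from general knowledge to be the NAIL gene, averaged 7.25 CPM in ΔNFκB DSS mice, 0.281 in ΔNFκB untreated, 8.52 in WT DSS and 0.790 in WT untreated mice. Counts over a whole gene cannot check a deletion within it.

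Of the 13 mRNA genes, 12 lie on the plus strand and mt-Nd6 on the minus strand; of the tRNA genes 14 are on the plus and 8 on the minus strand, and both rRNA genes are on the plus strand. The strands differ in base composition, which is visible in the first 90 bases of 3 neighbouring mRNAs shown here, read in the direction of each transcript with every G in capitals (mm10, GENCODE M21 transcripts). They are mt-Nd6 (chrM:13981-14070, minus strand), mt-Nd5 (chrM:11742-11831, plus strand) and mt-Cytb (chrM:14145-14234, plus strand).
mt-Nd6: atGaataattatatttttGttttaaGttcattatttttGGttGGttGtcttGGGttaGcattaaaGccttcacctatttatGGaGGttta
mt-Nd5: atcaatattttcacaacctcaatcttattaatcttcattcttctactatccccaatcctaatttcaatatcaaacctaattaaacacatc
mt-Cytb: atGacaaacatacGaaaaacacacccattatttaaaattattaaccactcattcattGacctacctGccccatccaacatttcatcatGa
The stretch of mt-Nd6 held 17 G, that of mt-Cytb 5 and that of mt-Nd5 0. Over the whole genes, mt-Nd6 was 28.1% G and 5.97% C, and the 12 plus-strand mRNAs were 5.88% to 16.1% G and 22.1% to 29.97% C.

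Genes on this molecule are packed tightly, and some overlap. The last 63 bases of mt-Atp8 (chrM:7907-7969, plus strand) are shown with the 43 bases that also begin mt-Atp6 in capitals, since reads there belong to both genes.
mt-Atp8: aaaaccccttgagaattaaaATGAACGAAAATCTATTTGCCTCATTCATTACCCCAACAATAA
The ends of mt-Nd5 and mt-Nd6 share 14 bases on opposite strands, and mt-Nd4l and mt-Nd4 share 7 bases on the same strand. The strand setting of the counting is not given in the sources used here. Without strand, reads of mt-Nd6 could not be told apart from reads of the plus-strand precursor that covers it.

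Part of the mitochondrial sequence also exists as a copy in the nuclear genome. Transcripts of 7 annotated pseudogenes on the minus strand of chromosome 1 (mm10, from 24611535 to 24616197) matched a mitochondrial mRNA at 99% identity or more over at least 200 bases. They were Gm10925 (mt-Atp6), Gm29216 (the end of mt-Co1), Gm28661 (mt-Co2), Gm28437 (mt-Co3), Gm28438 (mt-Nd3), Gm28439 (the first 876 bases of mt-Nd4) and Gm10222 (mt-Nd4l). The 32 first bases of mt-Nd3 (chrM:9459-9490, plus strand) and of Gm28438 (chr1:24613088-24613119, minus strand) show how close they are, with the differing base in capitals.
mt-Nd3: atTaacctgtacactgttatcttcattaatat
Gm28438: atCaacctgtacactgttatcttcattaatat
The substitution is T3C, counted from 1 at the start of mt-Nd3, and it was the only difference over 345 aligned bases. The 7 copies together took 0.512% to 1.54% of all counts. Gm10925 had 1.56 to 1.65 times the count of mt-Atp6 in every library, and Gm28437 had 1.11 to 1.13 times that of mt-Co3. Gm29216, which covers only the end of mt-Co1, had 0.140 and 0.142 times its count in ΔNFκB DSS mice, 0.165 and 0.167 in ΔNFκB untreated mice, 0.144 and 0.146 in WT DSS mice and 0.150 and 0.160 in WT untreated mice. Gm28439, which covers the first part of mt-Nd4, had 0.439 and 0.435 times its count in ΔNFκB DSS mice, 0.387 and 0.396 in ΔNFκB untreated mice, 0.416 and 0.403 in WT DSS mice and 0.420 and 0.403 in WT untreated mice. The ratios of Gm29216 and Gm28439 differed between the ΔNFκB groups without overlap, and that of Gm29216 also between the WT groups. The ratio of Gm10925 separated the ΔNFκB groups too, at 1.65 and 1.65 after DSS and 1.56 and 1.57 untreated. The log2 fold changes of the 7 copies differed from those of their genes by at most 0.24 for DSS in ΔNFκB mice, 0.10 for DSS in WT mice, 0.09 between the genotypes in either treatment and 0.16 for the difference of responses. Counts of these 7 mRNAs are uncertain in level, because reads could be split between gene and copy. Nd1, Nd2, Nd5, Nd6, Cytb, Atp8 and both rRNAs had no such copy among annotated transcripts at these limits. Nuclear sequence outside annotated transcripts was not searched. The 43 bases that mt-Atp8 shares with mt-Atp6 lie within the match of Gm10925. The count of mt-Nd6 was whole in all 8 libraries (within 0.005), and each of the other 12 mRNAs had a fractional count in at least 1 library.

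**Figure D1:**
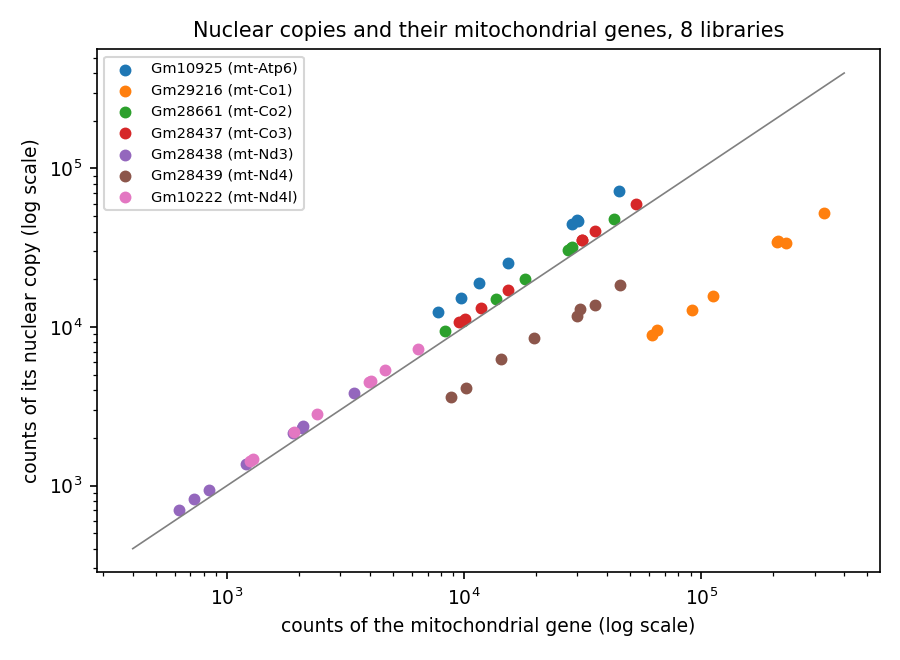
Counts of each nuclear copy (y axis, log scale) against counts of its mitochondrial gene (x axis, log scale) in 8 libraries; each point is 1 library, each colour 1 pair, and the line marks equal counts. The points of each pair rise together, with Gm10925 above the line at 1.56 to 1.65 times mt-Atp6.

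Per kilobase, with counts of the copies added to their genes, mt-Co1 had the highest level of the mRNAs in all 4 groups. Its level was 14961 ± 2136 CPM per kilobase in untreated WT colon (SD, n = 2), where mt-Atp6 had 10255 ± 1725. mt-Co3 and mt-Co2, the other mitochondrial subunits of cytochrome c oxidase, followed at 8646 ± 1328 and 7941 ± 1281, and their ranges overlapped. mt-Cytb, the mitochondrial subunit of complex III, had 4149 ± 573. The complex I subunits ranged between 3295 ± 441 for mt-Nd1 and 467 ± 89.8 for mt-Nd6, and mt-Atp8 was lowest at 429 ± 106, with a range that overlapped that of mt-Nd6. The same 13 mRNAs kept mt-Co1, mt-Atp6 and mt-Atp8 at ranks 1, 2 and 13 in every group. mt-Atp8 has 204 bases, little more than a read of 150 bases, and shares 43 of them with mt-Atp6. Copy counts were added to mt-Atp6 and not to mt-Atp8. The part of these limits in the low level of mt-Atp8 was not tested. mt-Rnr2, the large-subunit rRNA, reached 64858 ± 13951 CPM per kilobase, although library preparation may remove rRNA to an extent that the labels do not state.

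All mitochondrial members together took 9.32% and 14.02% of counts in ΔNFκB DSS mice, 16.92% and 15.5% in ΔNFκB untreated mice, 7.27% and 9.66% in WT DSS mice and 15.0% and 17.6% in WT untreated mice. The 4 DSS libraries lay below the 4 untreated ones, with a mean of 10.1% ± 2.84 after DSS and 16.3% ± 1.21 untreated (SD, n = 4 each; exact two-sided permutation test over 70 splits, p = 0.0286, the smallest it can give, 0.114 adjusted over 12 tests). The mRNAs alone were 2.21% and 2.65% of counts in ΔNFκB DSS mice, 3.73% and 3.62% in ΔNFκB untreated mice, 1.57% and 1.68% in WT DSS mice and 4.02% and 4.29% in WT untreated mice. Their mean share was 2.03% ± 0.501 after DSS and 3.91% ± 0.305 untreated (SD, n = 4 each; exact permutation p = 0.0286, 0.114 adjusted). Neither share passed after adjustment over the 12 tests. With permutation only within genotypes the total share had an exact p of 0.0556, the smallest that design allows. Over both treatments the total averaged 13.95% ± 3.31 in ΔNFκB and 12.4% ± 4.73 in WT libraries (SD, n = 4 each; exact permutation p = 0.657), and the 1.58-point difference turned to -0.117 without WT DSS replicate 1.

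**Figure D2:**
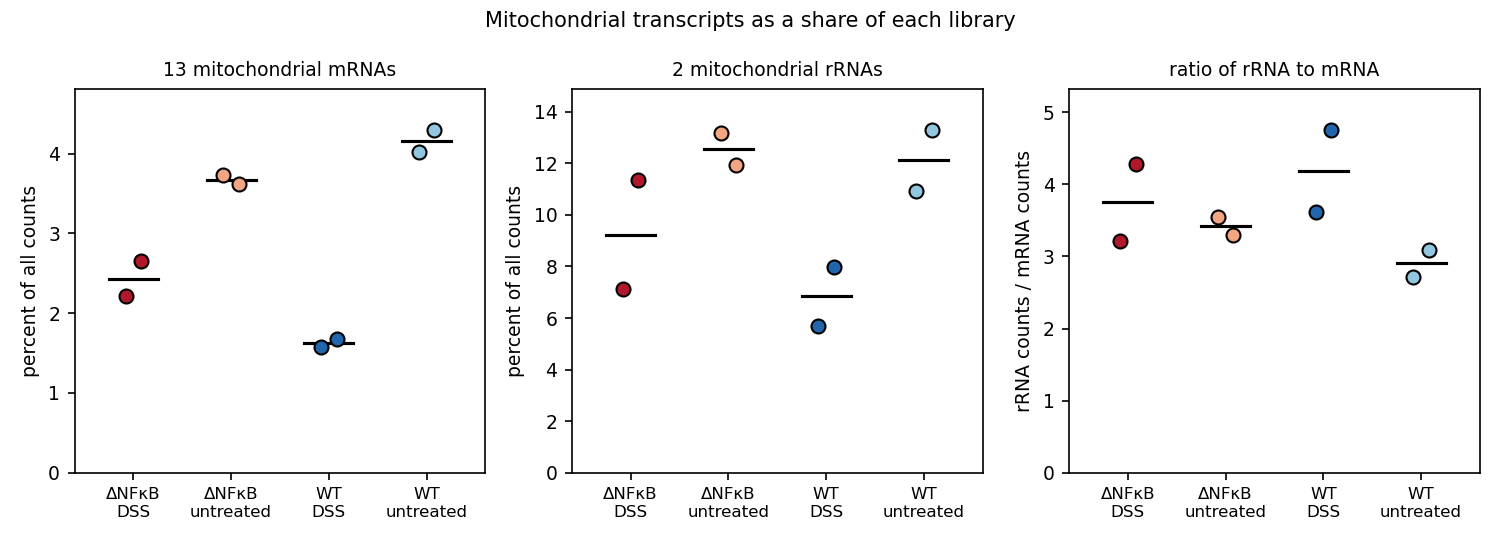
Share of all counts taken by the 13 mitochondrial mRNAs (left, percent) and 2 rRNAs (middle, percent), and the ratio of rRNA to mRNA counts (right), in each library; points are libraries and lines group means (n = 2). The mRNA share is 1.57% to 2.65% in the DSS libraries, below 3.62% to 4.29% in the untreated ones.

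In WT colon, 12 of the 13 mitochondrial mRNAs fell after DSS, and mt-Nd6 did not pass the test. The 12 were lower by 2.57-fold (mt-Nd5) to 3.85-fold (mt-Atp8), with a median log2 fold change of -1.68. The median of all 17522 genes tested was 0.00. Of the 20 members that passed the count filter, 15 fell and 0 rose, where 36% of all genes were called in either direction and 18.8% were lower (edgeR quasi-likelihood test, adjusted p below 0.05). Summed over the 12 mRNAs, WT DSS mice had 13789 and 14474 CPM, against 40095 and 48493 CPM in WT untreated mice, and the groups did not overlap.

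mt-Co1, the catalytic subunit of cytochrome c oxidase, had 5964 and 5969 CPM in WT DSS mice, against 18091 and 21973 CPM in WT untreated mice. It fell by 1.75 ± 0.20 on the log2 scale (SE; adjusted p = 0.000686). mt-Nd4l, a small membrane subunit of complex I, had 124 and 114 CPM in WT DSS mice and 371 and 427 CPM in WT untreated mice. Its change, -1.74 ± 0.15, had the smallest adjusted p among the members (0.000192). mt-Cytb, which carries the quinone sites of complex III, had 1635 and 1698 CPM in WT DSS mice and 4290 and 5216 CPM in WT untreated mice, and fell by 1.51 ± 0.20 (adjusted p = 0.00118). mt-Atp8, a subunit of the membrane part of ATP synthase, had 22.6 and 22.9 CPM in WT DSS mice and 72.4 and 103 CPM in WT untreated mice, a change of -1.95 ± 0.21 (adjusted p = 0.000512). mt-Nd5, a proton-pumping subunit of complex I, changed least of the 12, by -1.36 ± 0.18 (adjusted p = 0.00113), with 1063 and 1120 CPM in WT DSS mice and 2769 and 2841 CPM in WT untreated mice. In each of these genes both DSS libraries lay below both untreated ones.

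The other 7 of the 12 showed the same separation of groups. Among complex I subunits, mt-Nd1 had 1127 and 1318 CPM in WT DSS mice and 2859 and 3456 CPM in WT untreated mice. mt-Nd2 had 482 and 518 CPM in WT DSS mice and 1522 and 1792 CPM in WT untreated mice. Another proton-pumping subunit, mt-Nd4, had 846 and 930 CPM in WT DSS mice and 2465 and 3046 CPM in WT untreated mice. mt-Nd3, which carries a redox-sensitive loop of complex I, had 60.3 and 66.7 CPM in WT DSS mice and 167 and 230 CPM in WT untreated mice. For every complex I subunit but mt-Nd6, the highest DSS library was thus under the lowest untreated one. In complex IV, mt-Co2 had 803 and 908 CPM in WT DSS mice and 2264 and 2858 CPM in WT untreated mice. mt-Co3 had 915 and 924 CPM in WT DSS mice and 2847 and 3546 CPM in WT untreated mice. In ATP synthase, mt-Atp6 had 746 and 886 CPM in WT DSS mice and 2377 and 3006 CPM in WT untreated mice. Here too every DSS library lay below every untreated one. The share of all genes whose groups separated was not counted. Of these 7, mt-Co3 had the largest change, -1.80 ± 0.18 (SE; adjusted p = 0.000394), and mt-Nd1 the smallest, -1.37 ± 0.21 (adjusted p = 0.00242).

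All 12 remained past the test with a term for sex, with log2 fold changes of -1.67 to -1.23, and with each library left out in turn, with changes of -2.15 to -1.19. Among females, the 2 WT DSS libraries averaged 14131 CPM over the 12 mRNAs and the 1 untreated WT library had 40095 CPM, a log2 ratio of -1.50 that carries no test.

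**Figure D3:**
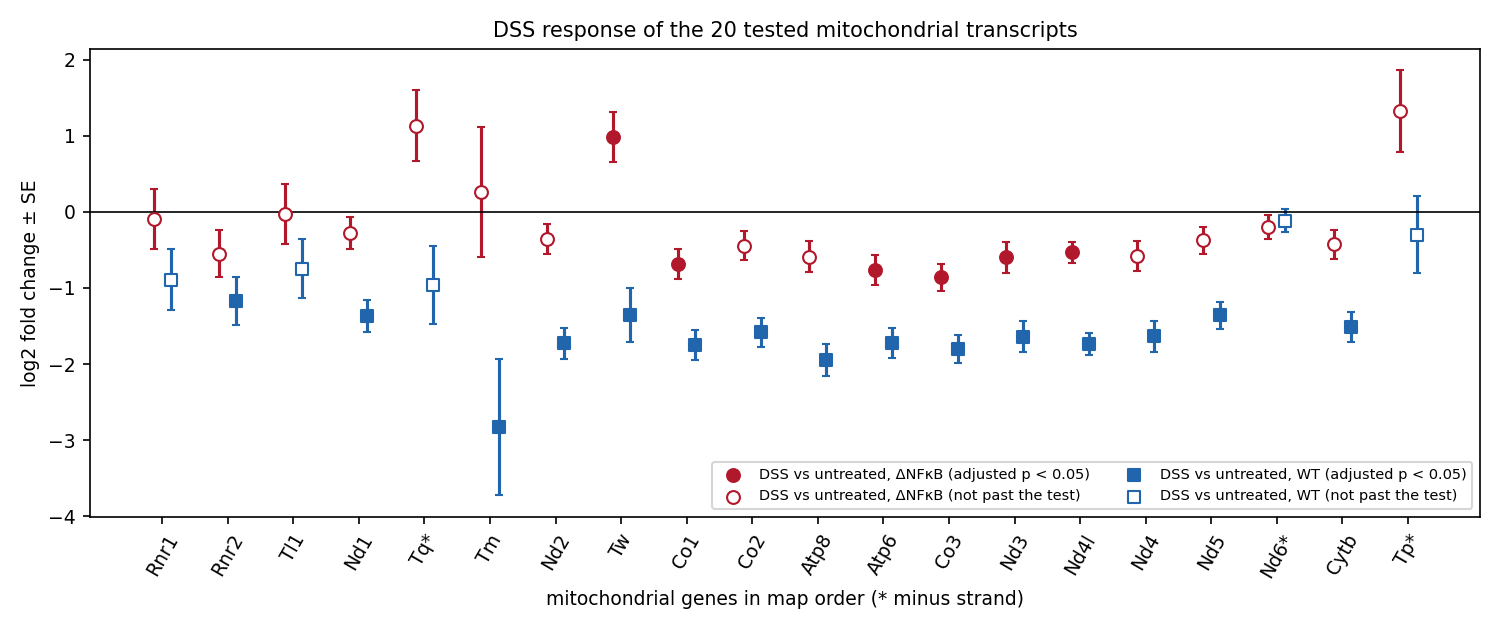
Log2 fold change between DSS and untreated colon (y axis, with SE bars) of the 20 tested members in the order of the mitochondrial map (x axis), for ΔNFκB (circles) and WT mice (squares); filled symbols passed the test and asterisks mark minus-strand genes. The 12 plus-strand mRNAs lie at -1.95 to -1.36 in WT mice and at -0.86 to -0.28 in ΔNFκB mice, and mt-Nd6 lies at -0.20 in ΔNFκB and -0.11 in WT mice.

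In ΔNFκB colon the same 12 mRNAs had smaller log2 fold changes after DSS, of -0.86 (mt-Co3) to -0.28 (mt-Nd1), with a median of -0.56. Of the 20 tested members 5 fell and 1 rose, where 35.4% of all genes were called (16.2% of all genes higher and 19.2% lower). The 5 that fell were mt-Co1, mt-Co3, mt-Atp6, mt-Nd3 and mt-Nd4l, and the tRNA mt-Tw rose. mt-Co3, a core subunit of cytochrome c oxidase, had 1202 and 1570 CPM in ΔNFκB DSS mice, against 2471 and 2560 CPM in ΔNFκB untreated mice, and fell by 0.86 ± 0.18 (SE; adjusted p = 0.00742). mt-Atp6, the proton-channel subunit of ATP synthase, had 1180 and 1580 CPM in ΔNFκB DSS mice and 2370 and 2320 CPM in ΔNFκB untreated mice, a fall of 0.77 ± 0.19 (adjusted p = 0.0171). mt-Nd1, a membrane subunit of complex I near its quinone site, had 1612 and 2367 CPM in ΔNFκB DSS mice and 2534 and 2300 CPM in ΔNFκB untreated mice, groups that overlapped (-0.28 ± 0.21, adjusted p = 0.33). Over the 12 mRNAs, ΔNFκB DSS mice had 21669 and 28528 CPM and ΔNFκB untreated mice 37784 and 37363 CPM. These calls rested on few libraries: 0 members were called with a term for sex, 1 without ΔNFκB DSS replicate 1, and 2 and 1 without ΔNFκB untreated replicates 1 and 2.

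The DSS responses of the genotypes differed for 13 of the 20 members, all higher in ΔNFκB mice, by the interaction term of the same fit. Untreated mice were all male in ΔNFκB and of both sexes in WT, so this term is not balanced for sex. Of all genes 17.7% were called, 8.63% higher and 9.07% lower. The 13 were mt-Tw and the 12 plus-strand mRNAs, whose differences were 0.94 (mt-Co3) to 1.37 (mt-Nd2) on the log2 scale. mt-Nd2, a membrane subunit of complex I, changed by -0.36 ± 0.20 in ΔNFκB mice and by -1.73 ± 0.21 in WT mice, so its difference was 1.37 ± 0.28 (adjusted p = 0.0186). mt-Nd4l had the smallest adjusted p, with a difference of 1.21 ± 0.20 (adjusted p = 0.0106). With libraries scaled by total counts the called members numbered 8. Without WT untreated replicate 2, WT DSS replicate 1, WT DSS replicate 2, ΔNFκB untreated replicate 1, ΔNFκB untreated replicate 2 or ΔNFκB DSS replicate 2, they numbered 4, 2, 1, 2, 2 and 1 in that order. Fewer of all genes were also called without those libraries, but the members lost a larger share of their calls. The 12 mRNA differences stayed positive with each library left out, between 0.73 and 1.65.

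After DSS, 11 of the 12 plus-strand mRNAs were higher in ΔNFκB than in WT mice. Their log2 fold changes were 0.59 to 1.08, with a median of 0.88, and mt-Co3 just missed the threshold (0.59 ± 0.18, adjusted p = 0.0501). With mt-Tw and mt-Tq, 13 of 20 members were higher and 0 lower, where 20% of all genes were called and 8.32% were higher. mt-Nd2 had 853 and 1262 CPM in ΔNFκB DSS mice, against 482 and 518 CPM in WT DSS mice (1.08 ± 0.20, adjusted p = 0.0102). mt-Co2, which carries the entry site for electrons from cytochrome c, had 1394 and 1864 CPM in ΔNFκB DSS mice and 803 and 908 CPM in WT DSS mice (0.93 ± 0.19, adjusted p = 0.0142). mt-Nd5 had 1687 and 2322 CPM in ΔNFκB DSS mice and 1063 and 1120 CPM in WT DSS mice (0.88 ± 0.17, adjusted p = 0.0130). In these genes the groups did not overlap, and ΔNFκB DSS replicate 2 was the higher library of its pair. The share of all genes that separated in this comparison was not counted. The count of called members was 0 without WT DSS replicate 2, 0 without ΔNFκB DSS replicate 2, 3 without WT DSS replicate 1 and 8 without ΔNFκB untreated replicate 2. Fewer of all genes were also called without those libraries, but the members lost a larger share of their calls. The 12 log2 fold changes stayed positive with each library left out, between 0.36 and 1.35.

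In untreated colon no member passed the test between the genotypes. Of the 20 members 0 were called by edgeR, 0 by DESeq2 and 0 by limma-voom, and 0 had an unadjusted p below 0.05, where 0.388% of all genes were called, 0.0399% higher and 0.348% lower. The 12 plus-strand mRNAs had log2 fold changes of -0.39 to -0.08 between ΔNFκB and WT mice, all below 0. For 10 of the 12, both ΔNFκB libraries lay below both WT libraries, and mt-Nd4 and mt-Cytb overlapped. How many of all genes separate in this way was not counted, so the 10 are not read as a result. A lower level in untreated ΔNFκB mice, too small for the test with 2 mice in a group, cannot be told apart from no difference. Their sum was 37784 and 37363 CPM in ΔNFκB untreated mice and 40095 and 48493 CPM in WT untreated mice. All 4 values of these groups stood above those of the DSS libraries.

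mt-Nd6, the complex I subunit encoded on the other strand, was called in no comparison, and lay between 210 and 291 CPM in all 8 libraries. It had 223 and 252 CPM in ΔNFκB DSS mice, 291 and 254 CPM in ΔNFκB untreated mice, 230 and 219 CPM in WT DSS mice and 210 and 276 CPM in WT untreated mice. The WT groups overlapped, and the change after DSS was -0.11 ± 0.15 in WT mice (SE; adjusted p = 0.585) and -0.20 ± 0.15 in ΔNFκB mice (adjusted p = 0.342). Between ΔNFκB and WT mice the log2 fold change was 0.08 ± 0.15 after DSS (adjusted p = 0.747) and 0.17 ± 0.15 untreated (adjusted p = 0.633). Its small change in WT mice had the other sign with total-count scaling (0.17), with a term for sex (0.10) and without WT untreated replicate 2 (0.13).

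Relative to the other mRNAs, mt-Nd6 had 10.3 and 8.82 counts per 1000 counts of the other 12 mRNAs in ΔNFκB DSS mice, 7.69 and 6.81 in ΔNFκB untreated mice, 16.7 and 15.1 in WT DSS mice and 5.23 and 5.69 in WT untreated mice. All 4 DSS values lay above all 4 untreated values, with means of 12.7 ± 3.77 after DSS and 6.36 ± 1.11 untreated (SD, n = 4 each; exact two-sided permutation p = 0.0286, 0.114 adjusted over 12 tests, so not past the threshold). When library sizes were taken from the mitochondrial members alone, the log2 fold changes after DSS in WT mice were -0.69 to -0.14 for the 12 other mRNAs, 1.14 for mt-Nd6 and 1.22 at the median of all genes. On that scale the value of mt-Nd6 was thus near that of the median gene. A ratio shows unequal change among these transcripts and not which of them moved. mt-Nd6 is also the mRNA that stands apart in base composition, and the part of composition in its counts was not tested.

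**Figure D4:**
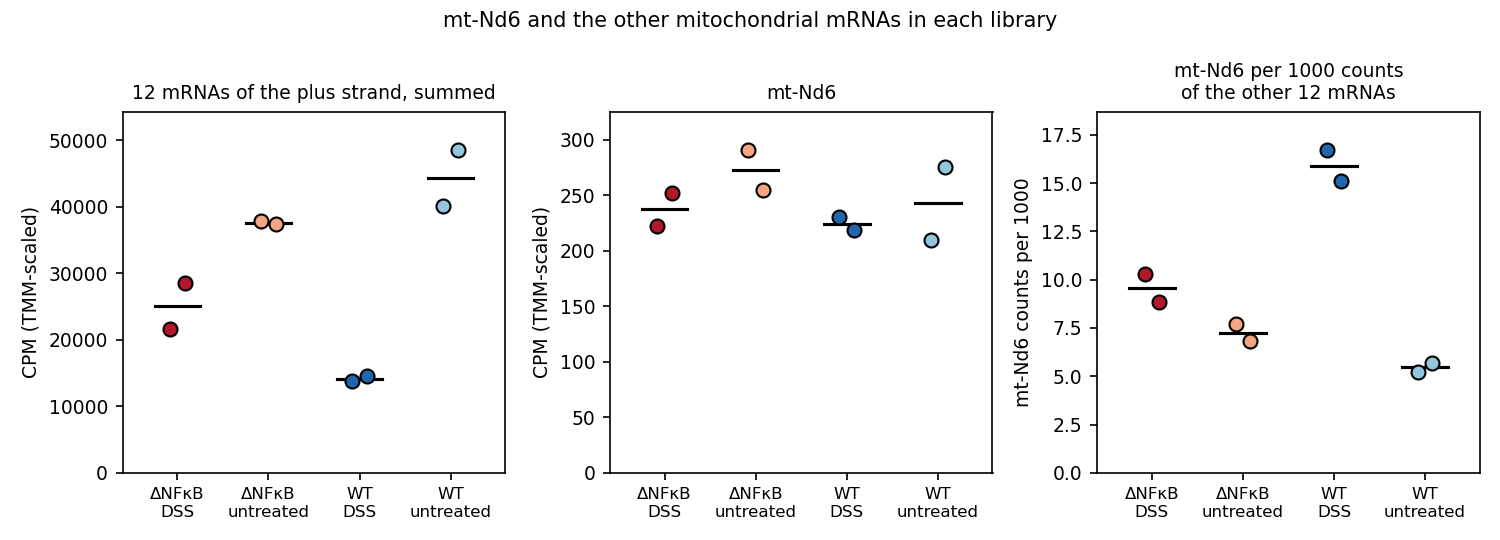
Summed CPM of the 12 plus-strand mRNAs (left), CPM of mt-Nd6 (middle) and counts of mt-Nd6 per 1000 counts of the other 12 mRNAs (right) in each library; points are libraries and lines group means (n = 2). mt-Nd6 lies between 210 and 291 CPM in all 8 libraries, and its ratio after DSS (8.82 to 16.7) lies above that of untreated mice (5.23 to 7.69).

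mt-Rnr2, the RNA of the large ribosomal subunit, had 50446 and 82949 CPM in ΔNFκB DSS mice, 97687 and 97220 CPM in ΔNFκB untreated mice, 39661 and 51303 CPM in WT DSS mice and 87137 and 118367 CPM in WT untreated mice. It fell in WT mice, by 1.18 ± 0.32 (SE; adjusted p = 0.0218), and in ΔNFκB mice its change was -0.55 ± 0.31 (adjusted p = 0.206). The WT call was lost with a term for sex (adjusted p = 0.0769), and without WT untreated replicate 2, WT DSS replicate 1 or WT DSS replicate 2 (adjusted p = 0.0704, 0.111 and 0.0601). mt-Rnr1, the RNA of the small ribosomal subunit, had 19953 and 40258 CPM in ΔNFκB DSS mice, 37107 and 26921 CPM in ΔNFκB untreated mice, 11122 and 18517 CPM in WT DSS mice and 22457 and 32582 CPM in WT untreated mice. It did not pass in any comparison (-0.89 ± 0.40 after DSS in WT mice, adjusted p = 0.113). The ratio of rRNA to mRNA counts was 3.22 and 4.28 in ΔNFκB DSS mice, 3.54 and 3.30 in ΔNFκB untreated mice, 3.62 and 4.75 in WT DSS mice and 2.72 and 3.10 in WT untreated mice. Its means of 3.97 ± 0.683 after DSS and 3.16 ± 0.348 untreated did not differ beyond the spread (SD, n = 4 each; exact permutation p = 0.114).

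The tRNA genes, of 59 to 75 bases, had few counts. Reads of 150 bases are longer than these genes, so mature tRNAs and longer precursors could not be told apart in the counts. Each library held 72.5 to 232 tRNA counts in all. Of the 22 tRNA genes 5 passed the count filter, 3 (mt-Tn, mt-Tg and mt-Tr) had no count in any library, and 9 others had a total under 10. A floor of 3 counts in a library corresponds to 0.201 to 0.309 CPM, and covers counting error only. The most counted was mt-Tw, the tRNA for tryptophan (chrM:4950-5016, plus strand), shown because it was the only tRNA called in 4 comparisons; its first 2 bases are also the last of mt-Nd2.
mt-Tw: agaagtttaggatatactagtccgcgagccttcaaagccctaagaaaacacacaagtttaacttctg
mt-Tw had 56 and 87 counts in ΔNFκB DSS mice, 53 and 40 in ΔNFκB untreated mice, 29 and 17 in WT DSS mice and 69 and 84 in WT untreated mice. It fell after DSS in WT mice by 1.36 ± 0.35 (SE; adjusted p = 0.0190) and rose in ΔNFκB mice by 0.98 ± 0.33 (adjusted p = 0.0494). The difference of these responses was 2.34 ± 0.48 (adjusted p = 0.0186), and after DSS it was higher in ΔNFκB than in WT mice by 1.75 ± 0.35 (adjusted p = 0.0135). The rise in ΔNFκB mice was lost with a term for sex (adjusted p = 0.265), with upper quartile or total-count scaling (adjusted p = 0.0599 and 0.0550), with DESeq2 (adjusted p = 0.0926) and with a replicate block (adjusted p = 0.0639). It was also lost without ΔNFκB DSS replicate 2, where the change was 0.65 (adjusted p = 0.272), without ΔNFκB untreated replicate 1 or 2 (0.0847 and 0.176) and without either WT untreated library (0.0558 each).

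mt-Tm, the tRNA for methionine, had 4 and 10 counts in ΔNFκB DSS mice, 11 and 4 in ΔNFκB untreated mice, 5 and 0 in WT DSS mice and 21 and 27 in WT untreated mice. It fell in WT mice by 2.83 ± 0.89 (SE; adjusted p = 0.0389), a call that rested on single libraries. Without WT DSS replicate 2 the change was -1.84 (adjusted p = 0.155). Without WT DSS replicate 1 it was -7.38, a fitted value against a group whose remaining library was at 0. The call was also lost with total-count scaling (adjusted p = 0.0540), DESeq2 (0.0657) and a term for sex (0.0956), and without WT untreated replicate 1 or 2 (0.0843 and 0.114) or ΔNFκB DSS replicate 1 or 2 (0.0535 and 0.0572). mt-Tq, the tRNA for glutamine on the minus strand, was higher in ΔNFκB DSS mice, with 22 and 21 counts, than in WT DSS mice, with 10 and 4 (1.72 ± 0.50, adjusted p = 0.0448). That call was lost without WT DSS replicate 2 (1.19, adjusted p = 0.234), without either ΔNFκB DSS library (0.135 and 0.179), without either ΔNFκB untreated library (0.0677 and 0.0683) and without WT untreated replicate 2 (0.0502). It was also lost with upper quartile and total-count scaling (0.0539 and 0.0722), DESeq2 (0.162) and a replicate block (0.0604).

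Neither mt-Tl1 (leucine) nor mt-Tp (proline, minus strand) was called in any comparison. mt-Tl1 had 15 and 24 counts in ΔNFκB DSS mice, 19 and 32 in ΔNFκB untreated mice, 15 and 20 in WT DSS mice and 32 and 44 in WT untreated mice. mt-Tp had 21 and 22 counts in ΔNFκB DSS mice, 17 and 5 in ΔNFκB untreated mice, 15 and 17 in WT DSS mice and 30 and 20 in WT untreated mice. The tRNAs below the filter with a total of 10 or more were mt-Tt (threonine), mt-Te (glutamate), mt-Ti (isoleucine), mt-Ts1 (serine) and mt-Ta (alanine). They had 52, 37, 21, 19.99 and 14 counts over the 8 libraries in that order, and at most 13 in any library. The 9 with a total above 0 and under 10 were mt-Td, mt-Ty, mt-Tk, mt-Th, mt-Tf, mt-Tv, mt-Ts2, mt-Tc and mt-Tl2, the tRNAs for aspartate, tyrosine, lysine, histidine, phenylalanine, valine, serine, cysteine and leucine. The 8 minus-strand tRNAs took 43.8% and 26.6% of tRNA counts in ΔNFκB DSS mice, 27.2% and 21.5% in ΔNFκB untreated mice, 41.8% and 40.7% in WT DSS mice and 26.6% and 24.3% in WT untreated mice. These shares rest on 24 to 60.3 counts per library.

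Nuclear genes for subunits of the same complexes also fell in WT mice, with smaller medians. Of 72 listed subunits of complexes I, III, IV and V, 71 were tested, and after DSS in WT mice 60 fell and 0 rose, where 18.8% of all genes were lower and 17.2% higher, with a median log2 fold change of -0.67. The mitochondrial medians by complex in WT mice were -1.63 (complex I, 7 mRNAs), -1.51 (complex III, 1), -1.75 (complex IV, 3) and -1.83 (complex V, 2), and the nuclear ones -0.68, -0.65, -0.83 and -0.64. The genomes were not tested against each other. Uqcrb, a complex III subunit, had 50.8 and 51.6 CPM in WT DSS mice and 112 and 158 CPM in WT untreated mice (-1.40 ± 0.17 SE, adjusted p = 0.000774). Cox7b of complex IV had 61.6 and 69.1 CPM in WT DSS mice and 148 and 193 CPM in WT untreated mice (-1.39 ± 0.16, adjusted p = 0.000686).

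In ΔNFκB mice the nuclear subunits had a median log2 fold change of 0.00 after DSS, with 7 higher and 4 lower, where 16.2% of all genes were higher and 19.2% lower. Cyc1, the cytochrome c1 of complex III, rose by 0.61 ± 0.11 (SE; adjusted p = 0.00357), with 160 and 173 CPM in ΔNFκB DSS mice and 109 and 110 CPM in ΔNFκB untreated mice. Ndufa1, a complex I subunit, fell by 1.19 ± 0.19 (adjusted p = 0.00218). After DSS 27 nuclear subunits were higher in ΔNFκB than in WT mice and 0 lower (median 0.37), where 8.32% of all genes were higher and 11.7% lower. By the interaction term, 42 had a higher DSS response in ΔNFκB mice and 0 a lower one (median 0.67), where 8.63% and 9.07% of all genes did. Ndufa12, a complex I subunit, had 35.3 and 47.6 CPM in ΔNFκB DSS mice and 22.1 and 22.3 CPM in WT DSS mice (0.90 ± 0.16, adjusted p = 0.00866). Untreated, 0 nuclear subunits were called by edgeR and their median was -0.31.

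**Figure D5:**
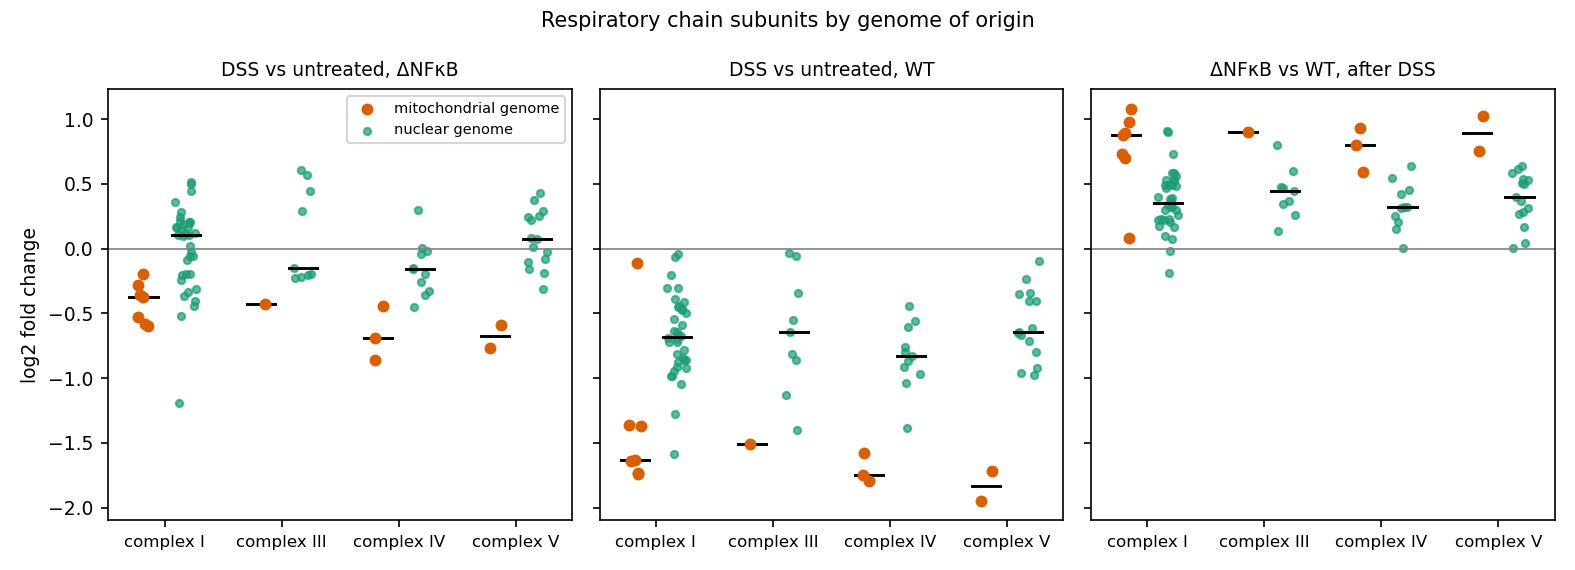
Log2 fold changes (y axis) of respiratory chain subunits encoded by the mitochondrial (orange) and nuclear (green) genome, by complex (x axis), for DSS against untreated in ΔNFκB mice (left) and WT mice (middle), and for ΔNFκB against WT mice after DSS (right); each point is a gene and lines are medians. In WT mice the mitochondrial medians are -1.83 to -1.51 and the nuclear ones -0.83 to -0.64; the single orange point near 0 in complex I is mt-Nd6.

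Of 17 genes for mitochondrial DNA replication and the nucleoid, 2 rose and 1 fell after DSS in ΔNFκB mice, where 35.4% of all genes were called, and 1 rose and 2 fell in WT mice, where 36% were. Tfam, which packages the genome and starts transcription, had 28.3 and 21.6 CPM in ΔNFκB DSS mice, 23.5 and 21.9 in ΔNFκB untreated mice, 21.3 and 23.7 in WT DSS mice and 27.2 and 23.6 in WT untreated mice. It was called in no comparison (-0.18 ± 0.16 SE after DSS in WT mice, adjusted p = 0.426), nor was Polrmt, the mitochondrial RNA polymerase (0.40 ± 0.16, adjusted p = 0.0829). Polg, the mitochondrial DNA polymerase, was the 1 that rose in WT mice (0.46 ± 0.13, adjusted p = 0.0250).

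Of 34 tested genes for transcription and RNA processing in the organelle, 6 rose and 3 fell after DSS in ΔNFκB mice, 1 rose and 10 fell in WT mice, and 3 were higher and 0 lower in ΔNFκB than in WT mice after DSS. Of all genes 35.4%, 36% and 20% were called in these comparisons, so in either direction the shares of the list called were near or below those of all genes. By direction, 16.2% of all genes rose and 19.2% fell in ΔNFκB mice, and 17.2% rose and 18.8% fell in WT mice. After DSS 8.32% of all genes were higher and 11.7% lower in ΔNFκB mice. In WT mice the calls of the list were thus mostly falls, unlike those of all genes. Lrpprc, which stabilises the plus-strand mRNAs and not mt-Nd6, had 89.2 and 89.8 CPM in ΔNFκB DSS mice, 65.7 and 72.1 in ΔNFκB untreated mice, 73.0 and 65.9 in WT DSS mice and 75.3 and 76.4 in WT untreated mice. It rose in ΔNFκB mice by 0.38 ± 0.10 (SE; adjusted p = 0.0230), and after DSS it was higher in ΔNFκB than in WT mice by 0.37 ± 0.10 (adjusted p = 0.0411). In WT mice its change was -0.13 ± 0.10 (adjusted p = 0.358). Pnpt1, a ribonuclease of the organelle, had 42.5 and 45.8 CPM in ΔNFκB DSS mice and 26.2 and 26.4 CPM in WT DSS mice (0.75 ± 0.13, adjusted p = 0.00864).

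Of 11 regulators of mitochondrial biogenesis, 3 rose and 3 fell after DSS in each genotype, where 35.4% of all genes were called in ΔNFκB and 36% in WT mice. By edgeR 0 differed between the responses, where 17.7% of all genes did. Ppargc1a, the coactivator PGC-1α, had 36.4 and 52.7 CPM in ΔNFκB DSS mice, 75.3 and 141 in ΔNFκB untreated mice, 27.0 and 24.9 in WT DSS mice and 72.9 and 89.1 in WT untreated mice. It fell by 1.28 ± 0.29 in ΔNFκB mice (SE; adjusted p = 0.0105) and by 1.64 ± 0.30 in WT mice (adjusted p = 0.00443). Esrrg, an estrogen-related nuclear receptor that works with PGC-1 coactivators, fell by 1.97 ± 0.31 in ΔNFκB mice (adjusted p = 0.00226) and by 3.12 ± 0.34 in WT mice (adjusted p = 0.000512). Pprc1, another PGC-1 family coactivator, rose by 1.25 ± 0.16 in ΔNFκB mice (adjusted p = 0.00105) and by 0.99 ± 0.16 in WT mice (adjusted p = 0.00314).

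Of 21 genes for matrix enzymes, chaperones and import, which serve as markers of mitochondrial content, 8 rose and 2 fell after DSS in ΔNFκB mice (median 0.20), where 16.2% of all genes rose and 19.2% fell. In WT mice 1 rose and 10 fell (median -0.41), where 17.2% of all genes rose and 18.8% fell. After DSS 12 were higher and 0 lower in ΔNFκB than in WT mice, where 8.32% of all genes were higher and 11.7% lower. Idh3a, a subunit of isocitrate dehydrogenase in the citric acid cycle, had 148 and 166 CPM in ΔNFκB DSS mice, 150 and 144 in ΔNFκB untreated mice, 80.1 and 71.3 in WT DSS mice and 158 and 176 in WT untreated mice. Its DSS response was higher in ΔNFκB mice by 1.24 ± 0.17 (SE; adjusted p = 0.00713). Hspd1, the matrix chaperonin, had 277 and 266 CPM in ΔNFκB DSS mice and 166 and 161 CPM in WT DSS mice (0.73 ± 0.15, adjusted p = 0.0138). Tomm40, the pore of the outer membrane import complex, rose in both genotypes, by 1.57 ± 0.14 in ΔNFκB mice (adjusted p = 0.000221) and by 0.95 ± 0.14 in WT mice (adjusted p = 0.00174).

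Markers of the cell types of colon tissue also differed between these groups, and their part in these results was not tested. Summed over 14 absorptive colonocyte markers, CPM ran from 3538 to 3617 in ΔNFκB DSS mice, 5781 to 7652 in ΔNFκB untreated mice, 2416 to 2473 in WT DSS mice and 6496 to 10112 in WT untreated mice. Of 13 tested colonocyte markers 10 fell and 0 rose after DSS in WT mice, where 18.8% of all genes fell. After DSS 4 of the 13 were higher and 2 lower in ΔNFκB than in WT mice, where 8.32% of all genes were higher and 11.7% lower. In that comparison all 9 tested goblet cell markers were higher and all 10 neutrophil markers lower. Of 10 smooth muscle markers 0 were higher and 1 lower. The sum of 10 goblet cell markers was 9067 to 10964 in ΔNFκB DSS mice, 16433 to 18005 in ΔNFκB untreated mice, 3154 to 3968 in WT DSS mice and 19500 to 27332 in WT untreated mice. The sum of 10 smooth muscle markers was 1149 to 1152 in ΔNFκB DSS mice, 6709 to 6954 in ΔNFκB untreated mice, 1328 to 1668 in WT DSS mice and 4347 to 8304 in WT untreated mice. The sum of 10 neutrophil markers was 80.9 to 82.9 in ΔNFκB DSS mice, 1.95 to 13.9 in ΔNFκB untreated mice, 364 to 456 in WT DSS mice and 2.55 to 2.82 in WT untreated mice, with Mmp8, Retnlg and Ngp at 0 in WT untreated mice. Markers of muscle and fat outside the colon were low: 9 skeletal muscle markers summed to 6.17 to 48.8 CPM and 7 adipocyte markers to 3.38 to 43.7 CPM. Myh1 and Myh4 were at 0 in both DSS groups, Myh4 also in ΔNFκB untreated mice; Ucp1 was at 0 in all groups but WT untreated, and Adipoq and Lep in ΔNFκB DSS mice.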

How the data were processed

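Total RNA of distal colon was made into libraries with the TruSeq Total RNA kit and read as 150-base pairs on a HiSeqX, per the labels' protocols. The submitters' processing notes name mm10, Subread 1.6.2, featureCounts, SAMtools 1.8 and HISAT2 2.1. How strand and reads that align to several places were handled, and which annotation was used, is not given in the sources used here. The deposited values are estimated counts per gene, not normalized: 18.8% of nonzero values were not whole, and values were rounded to whole numbers before the fit. The 115 symbols on several lines were summed, leaving 55418.

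One edgeR 4.0.16 quasi-likelihood fit of the 4 group means (R 4.3.3) used all 8 libraries, TMM factors and filterByExpr, which left 17522 genes. Adjusted p-values are Benjamini-Hochberg over those genes with a threshold of 0.05. There were 4 residual and 4.28 prior degrees of freedom, and the biological coefficient of variation was 17.1%. Each SE was taken as the size of the log2 fold change over the square root of F. Shares were compared over libraries by exact permutation. No test over a list of genes was made. Nuclear copies were found by alignment of GENCODE M21 transcripts, and gene positions and sequences come from the same release.

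The members, gene lists and tests were chosen with earlier results of these data known. All members are named; of each other list up to 3 genes with the smallest p past the threshold in a comparison were candidates for naming, and Gm16685, Ppargc1a, Tfam, Polrmt and Lrpprc were followed throughout. Alternatives were RLE, upper quartile and total-count scaling, library sizes without mitochondrial and ribosomal RNA genes or from the mitochondrial members, DESeq2 1.42.0, limma-voom (limma 3.58.1), other count filters, the deposited table by Ensembl ID, a replicate block, a sex term, only the groups compared and each library left out. Adding nuclear copies to their genes was chosen after seeing the data. Simulated data for WT DSS against WT untreated mice, with 17019 genes tested, were put through the fit. At 4-fold 82% of 100 changed genes were recovered and at 2-fold 31% of 100, with 16 false calls. Those 16 are to be set against the recovered genes and not against all genes. Far fewer genes were changed than the 36% called in the real comparison, so these rates need not hold there.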

Additional observations from a re-analysis of the deposited data

Results flagged for a closer look

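The response to DSS differed between ΔNFκB and WT mice, by the interaction term of the edgeR fit with adjusted p below 0.05, for 13 members. As ΔNFκB minus WT on the log2 scale, the complex I differences were 1.09 for mt-Nd1, 1.37 for mt-Nd2, 1.04 for mt-Nd3, 1.05 for mt-Nd4, 1.21 for mt-Nd4l and 0.99 for mt-Nd5. The difference was 1.09 for mt-Cytb of complex III. For complex IV it was 1.06 for mt-Co1, 1.14 for mt-Co2 and 0.94 for mt-Co3, and for complex V 0.96 for mt-Atp6 and 1.36 for mt-Atp8. The tRNA mt-Tw had the largest of the 13, 2.34, from 17 to 87 counts per library. mt-Nd6 had -0.09 and was not among them. Sex was not balanced between the groups of this term. Groups of 2 did not allow a search for outlying libraries.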

How the results depend on the processing

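With 2 mice in a group, many calls rest on single libraries. Leaving out a library also lowered the number of calls over all genes in most fits. In several of these fits the members lost a larger share of their calls than all genes did. Leaving out each library in turn gave 12 to 15 called members for DSS in WT mice (15 with all), 1 to 7 for DSS in ΔNFκB mice (6), 0 to 14 for ΔNFκB against WT mice after DSS (13) and 1 to 13 for the difference of responses (13); the lone library of a group is then assumed to vary like the others. With a sex term DSS in ΔNFκB mice had 0 called members and DSS in WT mice 12; with total-count scaling the difference of responses had 8. A fit of only the groups compared gives no value for that difference. Total-count scaling moved the median log2 fold change of all genes to 0.27 for DSS in WT mice, -0.20 for ΔNFκB against WT mice after DSS and -0.33 for the difference, and upper quartile factors moved the last to -0.14. The replicate numbers did not pair the libraries (correlations of -0.13 to 0.24); with a replicate block the counts were 15, 8, 0, 13 and 13 in the order DSS in WT, DSS in ΔNFκB, genotype untreated, genotype after DSS and difference. Library sizes from the mitochondrial members moved that median to 1.22 for DSS in WT mice, and with it the WT change of mt-Nd6 to 1.14 and that of mt-Rnr2 to 0.054. The share difference between DSS and untreated libraries (-6.18 points) was -7.26 with a TMM-scaled denominator (exact permutation p = 0.0571), -6.18 with permutation within genotypes (exact p = 0.0556), and -7.50 to -5.25 with a library left out; the genotype difference was -0.117 to 3.32. Of 47 called changes of single members, 144 of 376 values with a library left out were no longer past the threshold and 0 changed sign.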
